A study of Mus musculus with 40 samples.

Results

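The genes examined here encode the proteins of the centromere and the kinetochore, the protein structure built on the centromere to which spindle microtubules attach. The members are a list of 39 symbols, to which no threshold on expression was applied, and all 39 were found among the 55492 gene rows of the count table. By role, 17 belong to the inner kinetochore, 17 to the outer kinetochore, and 5 stand outside both sets. Transcripts were counted in 40 single cells from the testis of C57BL/6J mice aged 6 to 8 weeks, in 20 libraries labelled Pachytene and 20 labelled Metaphase I. Pachytene spermatocytes were obtained by centrifugal elutriation, and entry into metaphase I was brought about in culture with 4 µM okadaic acid, an inhibitor of protein phosphatases, over 5 h. The same protocol text stands on every library, so stage, drug and time in culture form 1 contrast and cannot be told apart. How the Pachytene cells were held, with or without drug, was not given in the sources used here. No genotype or allele other than the strain is labelled, and no animal or culture is named. The cells of a group were therefore treated as 1 sample, differences are described without a test, and every interval is a 95% interval for counting error only.

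The inner kinetochore stays on centromeric chromatin, where the histone H3 variant encoded by Cenpa marks the site and the constitutive centromere-associated network (CCAN) binds it. The outer kinetochore is assembled on this base as a cell approaches division, and its KMN network, made of Knl1, the Mis12 complex and the Ndc80 complex, holds the microtubule. In male meiosis I a spermatocyte passes from a long prophase, in which pachytene is the stage of full pairing, to a metaphase at which sister kinetochores act together and face the same pole.

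The sequences around the transcription starts of some members are shown first. All members of 1 set whose transcripts varied together carried at least 1 of a pair of similar 6-letter words there. In another such set some members carried them and others did not. Each stretch runs 5′ to 3′ on the strand of the gene, from 60 bases before the RefSeq start to the 30 bases that begin at the start, on GRCm38.p6. Capitals mark TTTGAA or TTTAAA, the letters of the cell-cycle genes homology region, an element known from promoters of genes expressed late in the cell cycle. Ndc80, Spc25, Cenpe, Cenpf and Hjurp are shown as a set that varied together across cells, Dsn1 and Pmf1 as members of a second such set without these letters in the stretch shown, and Cenpa as the centromeric histone without counts. These 8 were chosen after the values were seen. Of the second set, Cenpc1 and Zwint carried the letters near the start but are not printed. Pmf1 had TTTGAA further upstream, and Zwilch had no matched window.
Cenpf, chr1:189688057-189688146, minus strand: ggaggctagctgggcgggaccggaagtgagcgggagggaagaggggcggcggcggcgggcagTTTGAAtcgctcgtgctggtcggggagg
Ndc80, chr17:71526828-71526917, minus strand: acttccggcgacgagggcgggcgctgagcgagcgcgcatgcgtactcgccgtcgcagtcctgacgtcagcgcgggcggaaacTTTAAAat
Hjurp, chr1:88277550-88277639, minus strand: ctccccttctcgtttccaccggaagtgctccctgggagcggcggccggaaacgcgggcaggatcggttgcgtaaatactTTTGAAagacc
Cenpe, chr3:135212503-135212592, plus strand: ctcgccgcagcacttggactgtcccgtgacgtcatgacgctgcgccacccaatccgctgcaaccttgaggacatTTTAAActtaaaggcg
Spc25, chr2:69206184-69206273, minus strand: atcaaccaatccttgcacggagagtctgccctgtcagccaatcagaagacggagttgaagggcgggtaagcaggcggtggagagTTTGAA
Dsn1, chr2:157007046-157007135, minus strand: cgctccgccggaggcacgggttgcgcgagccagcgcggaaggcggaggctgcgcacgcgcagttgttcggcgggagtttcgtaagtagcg
Pmf1, chr3:88410368-88410457, minus strand: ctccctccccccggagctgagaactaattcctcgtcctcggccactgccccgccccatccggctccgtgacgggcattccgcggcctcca
Cenpa, chr5:30666826-30666915, plus strand: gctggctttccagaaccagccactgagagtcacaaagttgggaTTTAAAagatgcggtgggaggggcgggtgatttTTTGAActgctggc

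RefSeq promoter windows, from 250 bases before to 50 after the start, were matched for 34 of the 39 genes, all but Nsl1, Spc24, Ska1, Zwilch and Meikin. Both strands were searched, and none of the motifs contains another. Shares of members count genes with the letters in any of their windows (37 windows for the 34 genes), while shares of all windows count single windows. TTTGAA or TTTAAA was found in the windows of 17 of the 34 genes (50%), against 27.6% of all 32851 windows. Within 40 bases of the start, a distance chosen after the values were seen, the letters were found for 13 of 34 (38.2%) against 7.06% of all windows. Besides the genes printed, these were Cenpc1, Cenpn, Cenpw, Knl1, Zwint, Ska3 and Oip5. CCAAT, the letters bound by NF-Y, was present for 20 of 34 (58.8%, all windows 37.4%), and AACNGTT, a MYB-family sequence, for 0 of 34 (all windows 4.45%). A match describes letters in a window and is not evidence of binding.

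Totals ran from 165048 to 2325564 counts a cell, with sums of 17663240 in Pachytene and 13709617 in Metaphase I, and Metaphase I replicate 13 was the deepest cell of its group. All 8 spermatocyte markers had counts in both groups, with median summed levels of 20380 and 20790 counts per 1000000 (CPM). X-linked transcripts exceeded 0.3% of counts in 8 libraries, Pachytene replicates 2, 3, 7 and 19 and Metaphase I replicates 3, 7, 17 and 19. Of these, 5 had more than 3000 CPM of spermatid markers (10 genes, of which 10 had counts in both groups, medians 73.5 and 40.9 CPM), and Metaphase I replicate 19 had 13435 CPM of Sertoli markers, of which the group medians were 0 and 2.84 CPM. Metaphase I replicate 18, not among the 8, had the lowest spermatocyte marker sum of all cells, 8169 CPM, and 211 CPM of Sertoli markers. Sertoli-cell genes Rhox5 and Gata4 were at 0 counts in all cells. The part of these markers in the results was not tested. Sums of the layers and folds of some genes are given with and without the 8 libraries. A fold given only once is over all cells and may differ without these libraries.

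Of the 39 genes, 37 were measured, with at least 20 counts in all. Their transcripts were present in most cells of both groups at similar summed levels. The median log2 ratio, Metaphase I over Pachytene with 1 CPM added to each, was 0.25, against -0.00 over all 16174 genes with this many counts, and 30 of the 37 ratios were above 0. Over 2-fold higher in Metaphase I were 2 members, Oip5 and Cenpt, and 0 were over 2-fold lower. Over all measured genes 8.49% were over 2-fold higher and 9.81% lower. Without the 8 libraries, 3 members passed 2-fold higher (Cenph, Cenpt and Oip5; all genes 6.32%) and 0 lower (all genes 4.13%), and the median of the members was 0.18. Without Metaphase I replicate 13 alone, 0 members passed higher (all genes 7.54%) and 0 lower (all genes 8.51%). Without Pachytene replicate 16 there were 5 higher (all genes 9.63%), with Cenph, Pmf1 and Zwint added, and 0 lower (all genes 10.8%). Omission of Pachytene replicate 7 (all genes 8.73% higher and 3.91% lower) or of Metaphase I replicate 19 (all genes 5.06% and 10.2%) left 2 higher and 0 lower. The number past 2-fold therefore rested on single cells. For 7 members the medians over cells went the other way than the sums, namely Cenpc1, Cenpq, Cenps, Knl1, Ndc80, Ska1 and Meikin. The sign of the log2 ratio turned on omission of 1 cell for 10 members, namely Cenpk, Cenpl, Cenpn, Knl1, Mis12, Ndc80, Spc24, Ska1, Zw10 and Meikin.

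**Figure D1:**
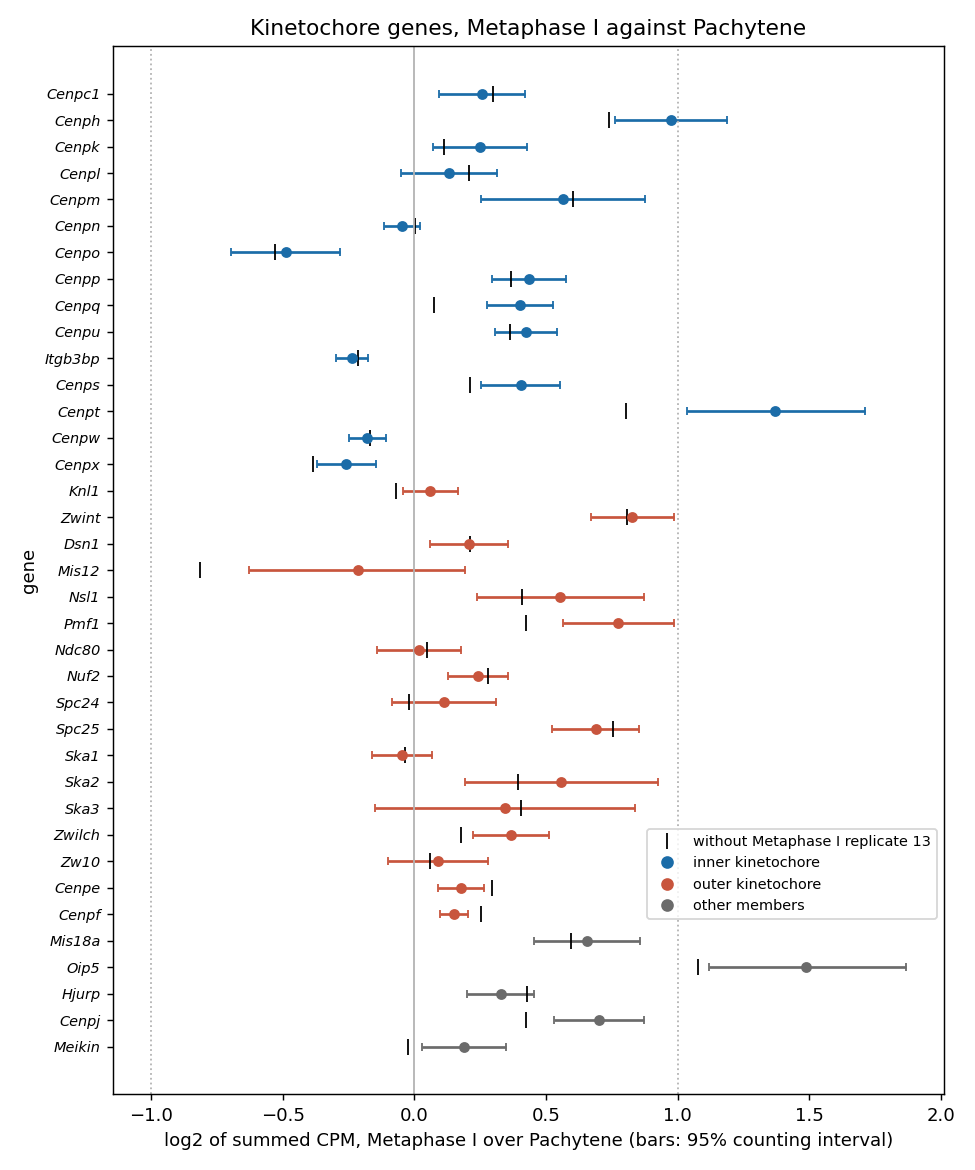
Horizontal axis: log2 of the summed CPM of Metaphase I over that of Pachytene, without added CPM, for the 37 measured genes, with circles for all cells coloured by role, bars for the 95% counting intervals, and black ticks for the ratios without Metaphase I replicate 13. Most circles lie between 0 and 1 on the log2 scale, and those of Cenpt and Oip5 lie above 1, with ticks further left.

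The centromeric histone gene Cenpa (chromosome 5, 30666777 to 30674830) had 0 counts in all 40 cells, out of 31372857 counts. Taking 3 counts as the limit that 0 allows gives 0.170 CPM in the Pachytene sum and 0.219 CPM in the Metaphase I sum, and the upper ends of the exact Poisson interval used for the other sums are 0.209 and 0.269 CPM. No other annotated gene shares exon bases with it. A 0 says only that the row holds no counts, and 53.3% of all gene rows were at 0. Cenpb, whose protein binds a DNA box in centromeric satellite repeats, had 3 counts over the Pachytene cells and 4 over the Metaphase I cells. Chaperones and loading factors of the same histone were measured. Hjurp, which deposits it, had 1027 and 1001 counts, Mis18a, which licenses the site, 377 and 461, and Oip5, also of the Mis18 complex, 89 and 194.

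Among CCAN genes, levels per length were highest for Cenpx, Cenpn and Itgb3bp. Per kilobase of annotated exon the mean levels were 79.0 CPM for Cenpx, 66.2 for Cenpn and 63.0 for Itgb3bp, and lowest in the set for Cenpt, at 3.09, Cenpo, at 3.63, and Cenpl, at 5.65. Because only 3′ ends were sequenced, division by exon length can understate long transcripts. Itgb3bp, Cenpn and Cenpw held 23.9%, 17.7% and 17.5% of the inner counts.

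Itgb3bp (chromosome 4, 99765402 to 99929813), which encodes CENP-R, ran from 66.7 CPM over a median of 325 to 419 in Pachytene cells and from 50.6 over 287 to 356 in Metaphase I cells. The ranges overlapped, but 18 of 20 Metaphase I cells lay below the Pachytene median. The summed level was 0.849-fold that of Pachytene (0.814 to 0.885), and 0.890-fold without the 8 libraries (0.850 to 0.932). Over all 9215 genes for which this was counted, 6.63% had 15 or more of the 20 cells below, a limit chosen after the values were seen. Of the 36 members counted in the same way, 1 had 15 or more below, and 2 had 15 or more above (all genes 6.52%).

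Cenpx (chromosome 11, 120710942 to 120713738), a histone-fold subunit, ran from 43.8 CPM over 82.4 to 194 in Pachytene and from 11.9 over 64.0 to 150 in Metaphase I, with overlapping ranges and a summed fold of 0.836 (0.773 to 0.904). Cenpn (chromosome 8, 116921730 to 116941507), which reads the centromeric nucleosome, had nearly equal medians of 214.4 and 214.1 CPM, with ranges of 30.3 to 444 and 125 to 322, and a fold of 0.968 (0.923 to 1.02). Cenpw, the histone-fold partner of Cenpt, had 0.884-fold (0.842 to 0.928). The abundant CCAN transcripts were thus level or slightly lower in the Metaphase I sum.

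Cenpt (chromosome 8, 105844673 to 105853278) links the DNA to the Ndc80 complex. Its level was 0 to 32.1 CPM with a median of 3.90 in Pachytene, with counts in 16 of 20 cells, and 0 to 59.5 CPM with a median of 10.3 in Metaphase I, with counts in 18. The groups overlapped, 15 of 20 Metaphase I cells lay above the Pachytene median (all genes 6.52%), and the sum was 2.59-fold higher (2.05 to 3.28). The highest cell, Metaphase I replicate 13, held 39.9% of the counts of its group, and without it the sum was 1.75-fold higher (1.35 to 2.27). With the 8 libraries left out, the fold was 2.40 (1.90 to 3.05).

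Cenph, Cenpk, Cenpl and Cenpm are further CCAN subunits. Cenph came just under the 2-fold limit at 1.96-fold (1.69 to 2.28), and was 1.67-fold higher without Metaphase I replicate 13. Cenpk ran from 3.86 CPM over 17.6 to 78.6 in Pachytene, where replicate 7 held 31.0% of the counts, and from 0 over 26.8 to 268 in Metaphase I, where replicate 18 was highest. Its fold was 1.19 (1.05 to 1.35), and 1.75 (1.49 to 2.04) without the 8 libraries, of which Pachytene replicate 7 is 1. Without Metaphase I replicate 18 the log2 ratio was -0.00, against 0.24 over all cells. Cenpl ran from 0 over 29.9 to 147 and from 7.10 over 39.7 to 92.2 CPM, with a fold of 1.10 (0.966 to 1.24). The level of Cenpm was 1.48-fold (1.19 to 1.83), with 163 and 187 counts.

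The Cenpo, Cenpp, Cenpq and Cenpu products form 1 subcomplex with Itgb3bp, yet their transcripts did not share a direction. Cenpo (0 over 19.9 to 68.1 CPM, then 0 over 19.4 to 47.1) was 0.713-fold (0.617 to 0.822), with 27.6% of its Pachytene counts in replicate 6. Cenpp, Cenpq and Cenpu were higher in the Metaphase I sum, at 1.35-fold, 1.32-fold and 1.34-fold. For Cenpq, omission of Metaphase I replicate 13 took the log2 ratio from 0.39 to 0.07. Exons of Cenpo share 22.5% of their bases with Adcy3 and Ptrhd1, those of Cenpu 26.7% with Primpol and those of Cenpp 12.6% with Aspn and Ippk, so counts of these genes are uncertain where strand was not used. For Cenpp, 50% of the short words at its 3′ end also occur in Ippk. Cenps, the partner of Cenpx, was 1.32-fold in the sum (1.19 to 1.47), with 22.0% of the Metaphase I counts in replicate 13. Its medians went the other way, at 48.0 CPM in Pachytene and 38.7 in Metaphase I, and 11 of 20 Metaphase I cells lay below the Pachytene median. Cenpc1, the scaffold of the inner kinetochore, was 1.20-fold (1.07 to 1.34).

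In the outer kinetochore Cenpf was the most abundant transcript, with 33.5% of the counts of the set, and Cenpe added 12.4%. Per kilobase of exon, Ska1 led with 30.8 CPM, followed by Cenpf with 24.0 and Cenpe with 15.9, while Ska3, at 1.71, Nsl1, at 2.07, and Mis12, at 2.23, were lowest. With only 3′ ends sequenced, this order depends on exon length, which is 2669 bases for Ska1 and 15433 for Cenpf. Ska1 and Ska3, the highest and the lowest of the set on this scale, encode subunits of the same microtubule-binding complex.

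Cenpf (chromosome 1, 189640606 to 189688086), a large protein of the fibrous corona, ran from 145 CPM over 298 to 790 in Pachytene and from 155 over 435 to 785 in Metaphase I. The ranges nearly coincided, yet 15 of 20 Metaphase I cells were above the Pachytene median. Its sum was 1.11-fold (1.07 to 1.15), and 0.992-fold without the 8 libraries (0.953 to 1.03).

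Cenpe (chromosome 3, 135212537 to 135273611), the kinesin that carries chromosomes to the spindle equator, spread more widely. It ran from 7.07 CPM over 103 to 586 in Pachytene and from 43.3 over 109 to 470 in Metaphase I, with a sum of 1.13-fold (1.06 to 1.20). Ska1, a subunit of the complex that follows microtubule ends, ran from 18.2 over 77.2 to 170 and from 26.8 over 78.2 to 194 CPM, with 0.969-fold (0.895 to 1.05). Ska3 had only 72 and 71 counts, from 0 over 3.37 to 15.9 and from 0 over 5.53 to 23.8 CPM. Ska2, with 119 and 136 counts, was 1.47-fold (1.14 to 1.90), and 41% of the short words at its 3′ end also occur elsewhere, so its counts are uncertain.

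The Ndc80 complex, which binds the microtubule directly, has 4 subunits. Ndc80 itself was level over all cells, at 42.1 and 42.7 CPM in the sums. Cells ran from 0 over 44.3 to 124 in Pachytene and from 3.23 over 42.0 to 107 in Metaphase I. This level result rested on single cells. The log2 ratio, 0.02 over all cells, fell to -0.18 once Pachytene replicate 7 was omitted. Omitting replicate 6 of the same group instead raised it to 0.19. Pachytene replicates 2, 3, 7 and 19, all among the 8 libraries, held 0, 8, 2 and 0 of the 744 Pachytene counts of Ndc80. Nuf2, its coiled-coil partner, was 1.18-fold (1.09 to 1.28), Spc24 1.08-fold (0.943 to 1.24) and Spc25 1.61-fold (1.44 to 1.81). Spc24 and Spc25 bind each other, and Spc25 ran from 1.39 over 20.0 to 122 CPM in Pachytene and from 2.93 over 25.6 to 151 in Metaphase I. Its medians were close, and the higher sum came with a group of high cells.

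In the Mis12 complex, which joins the inner and outer layers, Dsn1 was 1.15-fold (1.04 to 1.28), Nsl1 1.47-fold (1.18 to 1.83), Pmf1 1.71-fold (1.48 to 1.98) and Mis12 0.862-fold (0.647 to 1.14). Mis12 had 127 and 85 counts, from 0 over 6.39 to 18.8 and from 0 over 4.67 to 23.4 CPM. Metaphase I replicate 13 held 41.2% of its counts in that group, and without this cell Mis12 was 0.569-fold (0.402 to 0.796). Pmf1 ran from 0 over 12.6 to 70.6 and from 0 over 17.8 to 86.2 CPM, with 30.1% of its Metaphase I counts in the same cell. Nsl1 ran from 0 over 4.46 to 48.6 and from 0 over 8.88 to 48.5 CPM.

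Knl1, the scaffold for checkpoint proteins, was level at 1.04-fold (0.970 to 1.12), with a highest cell of 372 CPM in Metaphase I replicate 18. Zwint, its binding partner, ran from 0 over 31.6 to 96.8 CPM in Pachytene and from 3.53 over 33.2 to 362 in Metaphase I. The highest cell was Metaphase I replicate 19, the library with Sertoli markers, with 32.5% of the counts of its group. Over all cells Zwint was 1.77-fold higher (1.59 to 1.98), without that cell 1.26-fold (1.12 to 1.42) and without the 8 libraries 1.08-fold (0.956 to 1.22). Zwilch and Zw10, of the RZZ complex that recruits dynein and checkpoint proteins, were 1.29-fold (1.17 to 1.43) and 1.07-fold (0.934 to 1.21).

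Among the 5 genes outside both layers, Oip5 (chromosome 2, 119609512 to 119618469) ran from 0 CPM over 5.84 to 18.1 in Pachytene and from 0 over 7.48 to 42.8 in Metaphase I. The sum was 2.81-fold higher (2.17 to 3.65), the groups overlapped, and the highest cell, again Metaphase I replicate 13, held 33.0% of the counts of its group. Without that cell the sum was 2.11-fold higher (1.60 to 2.80), which with 1 CPM added is a log2 ratio of 0.95. With the 8 libraries left out, the fold was 3.23 (2.42 to 4.37). Exons of Oip5 share 9.67% of their bases with Nusap1, so its counts are uncertain where strand was not used. Of the short words at its 3′ end, 0% occur elsewhere. Mis18a was 1.58-fold (1.37 to 1.81), Hjurp 1.26-fold (1.15 to 1.37), and Cenpj, a centriole protein that shares only its name with the kinetochore genes, 1.62-fold (1.44 to 1.83). Meikin, the meiosis-specific protein that helps sister kinetochores face the same pole, was 1.14-fold (1.02 to 1.27), with medians of 34.9 and 30.1 CPM. Its log2 ratio was -0.02 without Metaphase I replicate 13. Without Pachytene replicate 7, which held 19.6% of its Pachytene counts and is among the 8 libraries, the log2 ratio was 0.29.

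**Figure D2:**
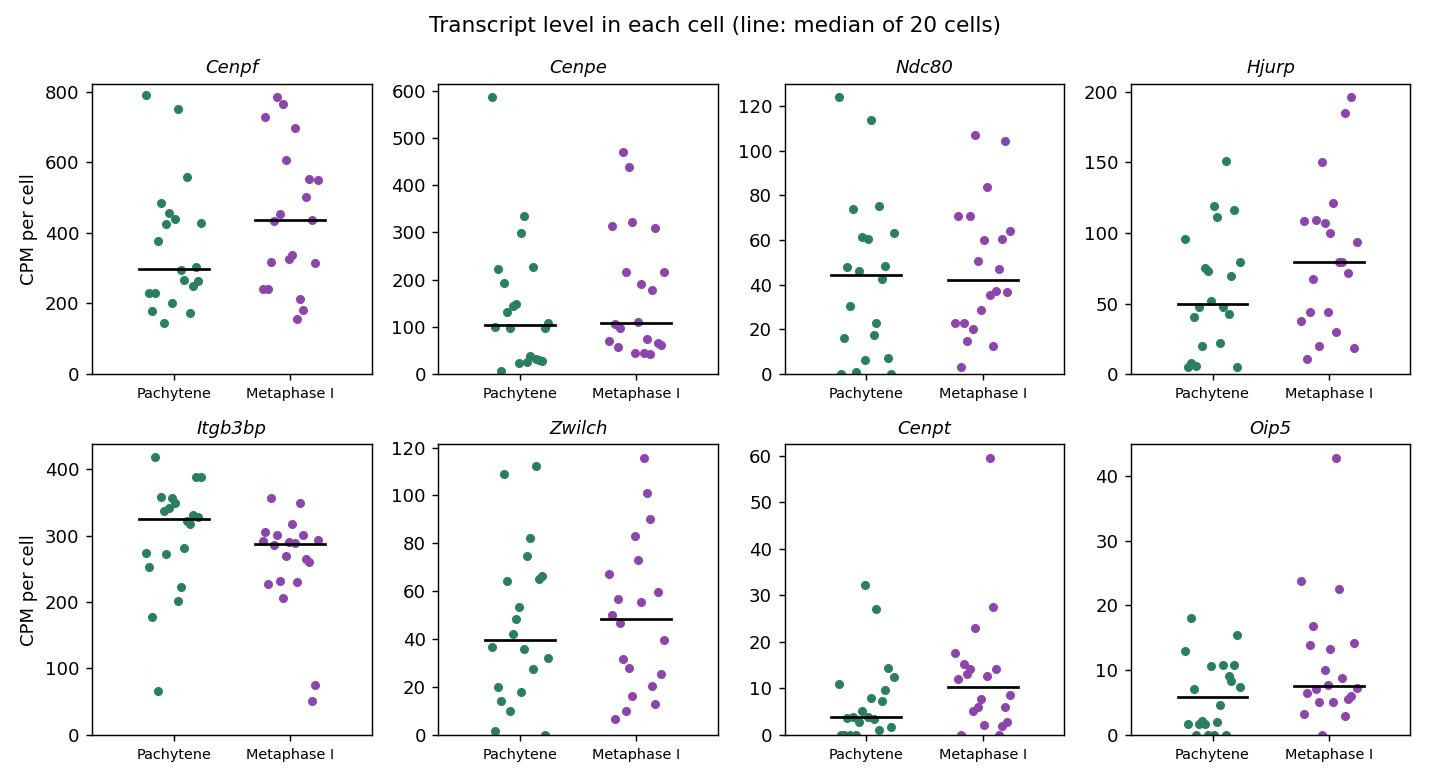
Vertical axis: CPM in each of 20 Pachytene and 20 Metaphase I cells for 8 genes, with black lines at the medians. The groups overlap in every panel, Cenpf has medians of 298 and 435 CPM, and single high cells of 59.5 and 42.8 CPM stand out for Cenpt and Oip5.

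Inner against outer, the summed layers differed little between the groups. Inner genes summed to 1226 CPM in Pachytene (21658 counts) and 1238 CPM in Metaphase I (16968 counts), or 1.01-fold (0.989 to 1.03). Outer genes summed to 1025 CPM (18107 counts) and 1184 CPM (16238 counts), or 1.16-fold (1.13 to 1.18), and 1.18-fold without Cenpf (1.15 to 1.21). Without the 8 libraries the outer sum was 1.07-fold (1.04 to 1.09) and the inner 1.02-fold (0.996 to 1.04). Without Pachytene replicate 7 alone, the cell with the most counts and the lowest outer level, the outer sum was 1.08-fold (1.05 to 1.10). The direction of the outer sum did not turn in these sums, but most of its size rested on a few libraries.

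Across single cells the outer sum varied more than the inner sum. The inner sum ran from 632 CPM in Metaphase I replicate 19 to 1633 in Pachytene replicate 4, with a median of 1234 and a coefficient of variation of 16.9%. The outer sum ran from 532 CPM in Pachytene replicate 7 to 2155 in Pachytene replicate 1, with a median of 1059 and a coefficient of variation of 34.8%, or 31.2% without Cenpf. In the 32 cells without the 8 libraries the coefficients were 13.5% and 30.8%. The inner sum rested largely on Itgb3bp, Cenpn and Cenpw, with coefficients of 0.280, 0.366 and 0.289 of the mean in Pachytene cells. Over single measured genes in Pachytene, coefficients ran from 0.280 to 1.19 in the inner set and from 0.458 to 1.33 in the outer set. The sums therefore do not show that single outer genes varied more. The 5 cells with the lowest outer sums were Pachytene replicates 7, 2, 19 and 3 and Metaphase I replicate 3. They were the 5 libraries with over 3000 CPM of spermatid markers, a limit chosen after the values were seen. The outer sum over the inner sum in a cell had medians of 0.774 in Pachytene (0.496 to 1.85) and 1.14 in Metaphase I (0.632 to 1.85), and 0.834 and 1.10 without the 8 libraries. The groups overlapped over nearly their whole range.

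**Figure D3:**
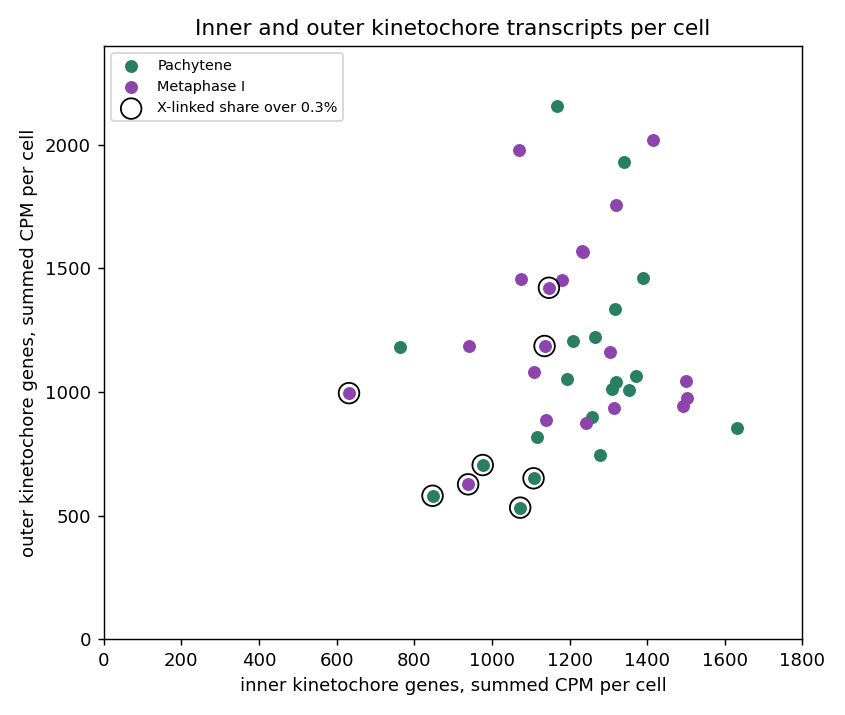
Horizontal axis: summed CPM of the 17 inner genes in each of 40 cells, vertical axis: summed CPM of the 17 outer genes, with Pachytene and Metaphase I in 2 colours and the 8 libraries over 0.3% X-linked counts ringed. Points spread from 532 to 2155 CPM along the outer axis, and both groups are found at its high and low ends.

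Rank correlations between genes across cells were low at the median, within a layer as well as across the layers. For 36 members with at least 200 counts, 630 pairs were compared by Spearman's rho over 40 cells, which share the library and the CPM denominator within each cell. The median rho was 0.09 for inner pairs, 0.12 for outer pairs and 0.14 for pairs across the layers. Few counts a cell can lower rho, and the part of counting error in these values was not tested. Of the 630 pairs, 18 reached 0.6 and 3 reached -0.6, limits chosen after the values were seen. The share over pairs of all genes was not counted, so there is no background to read these numbers against. Linking the pairs at 0.6 or more gave 3 sets. One held Ndc80, Spc25, Cenpe, Cenpf and Hjurp, the second Cenpc1, Zwint, Dsn1, Pmf1, Zwilch and Mis18a, and the third Cenpq and Cenps. Because the sets were drawn from these values, the correlations inside them are a description.

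The first set joined microtubule-binding and corona genes to the histone chaperone Hjurp. Cenpe varied with Spc25 (rho 0.81; 0.90 in 20 Pachytene, 0.63 in 20 Metaphase I and 0.85 in 32 cells without the 8 libraries) and with Cenpf (0.77; 0.65, 0.87 and 0.89). Ndc80 varied with Cenpf (0.76) and with Hjurp (0.71). The summed level of the set ran from 293 CPM in Pachytene replicate 7 to 1682 in Pachytene replicate 1. Its medians were 472 CPM in Pachytene and 683 in Metaphase I. In Pachytene replicate 1, Cenpf had 790 CPM, Cenpe 586, Ndc80 124, Hjurp 95.5 and Spc25 86.8. In Pachytene replicate 10 the same genes had 202, 24.5, 6.12, 52.1 and 9.19 CPM. High and low cells thus occurred under the same label.

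The second set ran from 3.49 CPM in Pachytene replicate 2 to 559 in Metaphase I replicate 18, with medians of 188 CPM in Pachytene and 209 in Metaphase I. Replicate 18 is the library with the fewest spermatocyte markers, and without it and the 8 libraries the highest value was 467 CPM. The closest pairs of the set were Zwint with Pmf1 (rho 0.77) and Cenpc1 with Zwilch (0.76). In 7 of the 8 libraries over the X-linked limit the sum was below 100 CPM, a limit set after the values were seen. In the remaining 32 cells its lowest value was 131. Without the 8 libraries the median rho within this set fell from 0.63 to 0.45, and that within the first set was 0.67 against 0.62 over all cells. The negative pairs were Cenpc1 with Cenpw (-0.67), Cenpw with Zwilch (-0.64) and Cenpx with Cenpe (-0.64).

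Against Aurka, the kinase gene of entry into division that is no member, the first set had a rho of 0.79 over 40 cells (0.66 in Pachytene, 0.88 in Metaphase I, 0.79 in the 32 cells). The second set had -0.18 over 40 cells and -0.83 in the 32 cells, which leave out the 7 libraries with under 100 CPM of this set. Against Sycp3, a gene of the synaptonemal complex that pairs chromosomes in prophase, the rho was -0.05 for the first set and 0.70 for the second over 40 cells, and -0.33 and 0.57 in the 32 cells. Between the sets it was -0.26 over 40 cells (-0.08 in Pachytene, -0.50 in Metaphase I) and -0.65 in the 32 cells. Without Metaphase I replicate 18 as well, in 31 cells, the sets had -0.71 with each other and 0.80 and -0.83 with Aurka. Cells with less depth tended to have more of the first set (rho with total counts -0.43, second set 0.17), and the part of depth was not tested.

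**Figure D4:**
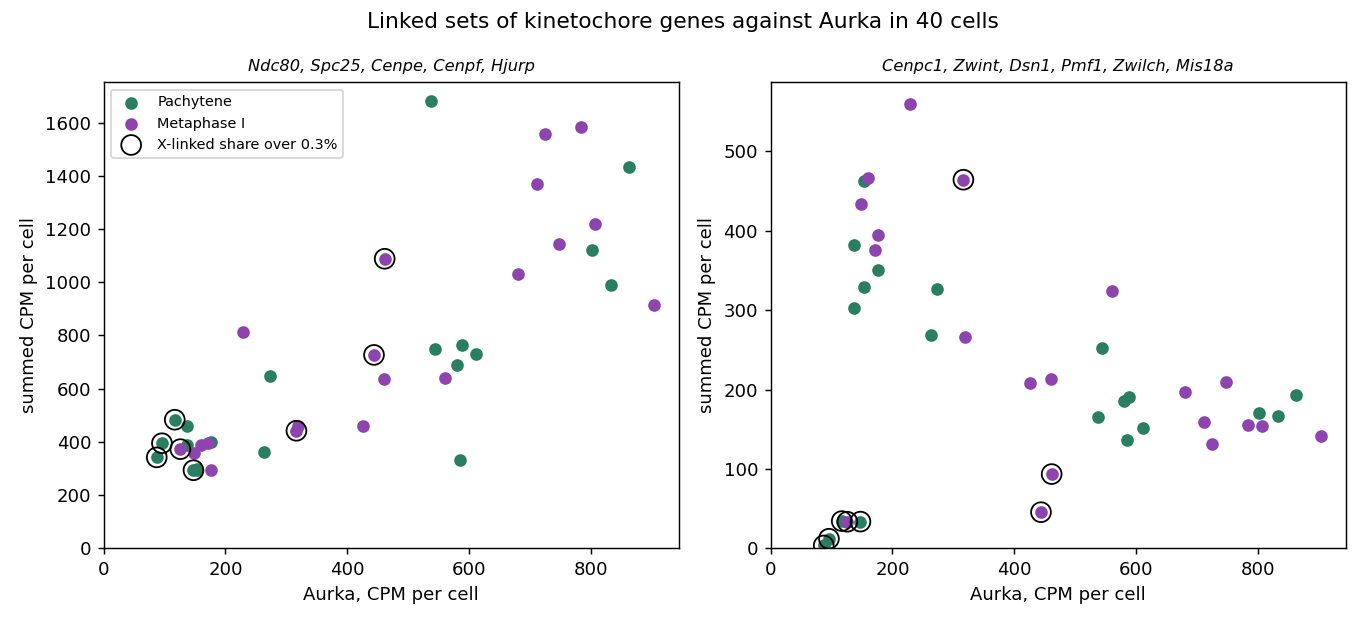
Horizontal axes: CPM of Aurka in each of 40 cells, vertical axes: summed CPM of the first set (left) and of the second set (right), coloured by group, with the 8 libraries over the X-linked limit ringed. The left panel climbs with Aurka to 1682 CPM, and in the right panel the cells outside the rings lie between 131 and 559 CPM, highest at low Aurka.

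The promoter letters were set beside these values. Of 31 members with a window and at least 200 counts, 11 had TTTGAA or TTTAAA within 40 bases of the start, with a median rho with Aurka of 0.42 (-0.48 to 0.82), and 20 did not, with a median of 0.02 (-0.54 to 0.54). In the 32 cells the medians were 0.56 and -0.38. The distance of 40 bases was chosen after the values were seen, and the 11 include all 5 members of the first set, printed above. Because that set was drawn from these same values, the difference between the medians is a description. Of the second set, Cenpc1 and Zwint had the letters too. Oip5 also had them, at a rho of -0.48. The letters were therefore not found only in genes whose levels rose with that of Aurka.

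**Figure D5:**
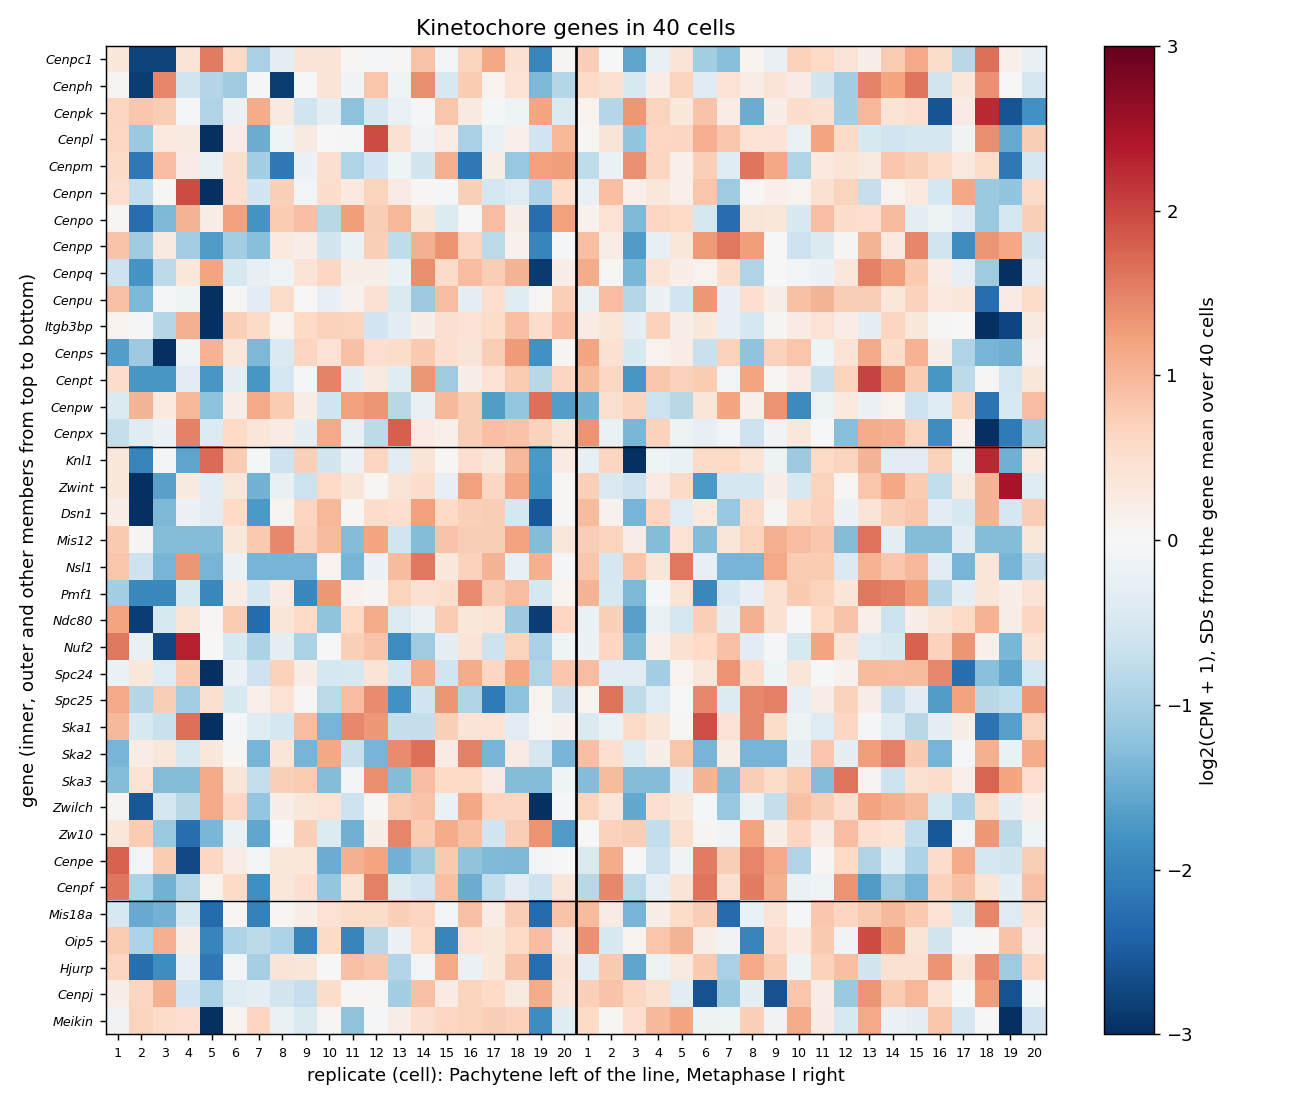
Each row is 1 of the 37 measured genes and each column 1 cell, Pachytene left of the vertical line, with colour giving log2(CPM + 1) in standard deviations from the gene's mean over 40 cells, from blue (low) to red (high). Neither side is uniformly red or blue, Pachytene replicates 2 and 19 have low values for many outer genes, and Metaphase I replicate 19 has a high value for Zwint.

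Detection in every cell was also counted. In Pachytene 16 members had a count in all 20 cells and in Metaphase I 24 did, against 26.7% and 29.1% of all measured genes. Metaphase I cells had a median of 540662 counts and Pachytene cells 730979. Omission of 1 shallow cell of Pachytene and 3 of Metaphase I gave 20 and 27 members (all genes 31.1% in both groups). Thinning the same cells to 340000 counts each gave 16 and 22 (all genes 27.0% and 27.8%). Pachytene replicates 5, 2, 3 and 19 had the fewest members of their group, at 27, 28, 31 and 31. Replicates 2, 3 and 19 are among the 8 libraries over the X-linked limit. Without the 8, the median cell had 36 members in each group, and the lowest cells had 27 and 33. Detection in every cell was not counted without the 8, and a few cells can set it.

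From a list of 26 partner genes that are not members, among them checkpoint kinases, chromosomal passenger proteins and microtubule regulators, 4 passed 2-fold in the Metaphase I direction (all genes 8.49%) and 0 in the other (all genes 9.81%). The median log2 ratio of the 26 was 0.32. Without the 8 libraries 25 were measured, 1 passed higher, Ckap5 (all genes 6.32%), and the median was 0.19. The 4 over all cells were Bub1b, a checkpoint protein (2.15-fold, 1.95 to 2.38), Mad2l1, the gene of the checkpoint protein MAD2 (2.14-fold, 1.85 to 2.50), Ckap5, a microtubule polymerase (2.08-fold, 1.82 to 2.38), and Clasp1, which stabilises microtubule ends (2.06-fold, 1.79 to 2.38). Metaphase I replicate 19 held 43.3% of the Clasp1 counts of its group and replicate 13 held 32.2% of those of Ckap5. Without replicate 13, or without Pachytene replicate 7, 0 of the 26 passed 2-fold. Cenpi, the CCAN subunit on the X chromosome, had 54 and 19 counts, found in 4 cells of each group. Of these counts, 54 and 18 were in the 8 libraries over the X-linked limit.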

How the data were processed

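Counts of transcripts per gene were deposited by the authors as 1 table with a column for each of 40 cells, per the file headers. Per the labels' protocols, cDNA was made by a modified STRT-seq method with 20 PCR cycles, its 3′ ends were kept, and 150 bp paired reads were sequenced. UMI-tools, STAR and featureCounts with GRCm38 were used, per the submitters' processing notes. Use of strand, the gene annotation's release and removal of PCR copies were not given in the sources used here, and intervals are too narrow if the counts are of reads. Members and lists were chosen with earlier results of these data known.

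The counts of each group's cells were added and scaled to 1000000 of their added totals (CPM). A gene was measured at 20 summed counts or more. Over 2-fold means a log2 ratio of at least 1 either way with 1 CPM added to both groups. Folds printed with intervals have nothing added and an exact conditional binomial interval, sums an exact Poisson interval. Per-cell values are given in full for members over 2-fold, members with over 30% of a group's counts in 1 cell, and the 3 highest and 3 lowest members per kilobase of each layer. Python 3.11.15, pandas 2.3.3 and scipy 1.17.1 were used, with edgeR 4.0.16 (TMM) and DESeq2 1.42.0 (median of ratios) for scaling alternatives only. The code was tested on simulated data. Doublets were not called. Alternatives were cell weighting, scaling, pseudocount, count minimum, thinning and omission of cells. Omission of the 8 libraries together with Metaphase I replicates 13 and 18, or 18 alone for the linked sets, sums without Cenpf or Itgb3bp, and counts of cells above or below a median were chosen after seeing the data, as were the linked sets and the letters near the start.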

Additional observations from a re-analysis of the deposited data

How the results depend on the processing

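No paired analysis was possible because replicate numbers name single cells and no test was made. Both scaling methods, totals that omit mitochondrial and ribosomal protein genes, and other count minimums left the number of members over 2-fold higher at 2. It was 0 with equal weight per cell, with a pseudocount of 10 CPM and with thinned cells, 1 with medians over cells and 1 without the 8 libraries and Metaphase I replicates 13 and 18. Leaving out each cell in turn gave 0 to 5 higher and 0 to 0 lower, and a median log2 ratio of 0.19 to 0.34. The inner log2 ratio, 0.01 as reported, was -0.022 with equal weight, -0.063 with medians, -0.043 with thinning and 0.091 without Itgb3bp (-0.025 to 0.051 leaving out 1 cell), so its sign turned. The outer log2 ratio, 0.21, was 0.091 without the 8 libraries and 0.12 without these and replicates 13 and 18 (0.11 to 0.26 leaving out 1 cell). The outer to inner log2 difference, 0.19, was 0.25 with equal weight, 0.26 with medians, 0.065 without the 8 libraries, 0.11 without these and replicates 13 and 18, and 0.12 without Itgb3bp (0.12 to 0.25 leaving out 1 cell). The median rho of inner pairs was 0.10 in Pachytene, 0.12 in Metaphase I and 0.028 without the 8 libraries, of outer pairs 0.15, 0.083 and 0.010, and of pairs across layers 0.15, 0.13 and 0.017. The causes were not tested. With 1 sample a group, no spread between animals is known, and genes with few counts, such as Ska3 and Mis12, have wide intervals.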
